A study of Mus musculus with 6 samples.

Results

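The genes used to follow the state of the renal tubule, Havcr1, Cst3, Krt18, Vim and Umod, 5 in all, were examined on every probe that the array carried for them. There were 10 such probes, of 15114 that carried a single named gene and of 23040 spots in all. Havcr1 and Umod had 1 probe each, Cst3 and Vim 2 each, and Krt18 4. Where a gene had several probes they shared 1 sequence record, so they are repeated measurements of a transcript rather than independent targets. They are numbered from the brightest down.

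Kidneys came from male Swiss albino mice of 8 to 10 weeks, 4 per group, taken 24 h after dosing. The first group received amodiaquine, a 4-aminoquinoline antimalarial, at 120 mg/kg. Another received SP (Sulfodoxine-Pyrimethamine in the labels), the antifolate pair sulfadoxine at 300 mg/kg with pyrimethamine at 15 mg/kg, and the remaining treated mice were given amodiaquine together with SP at those doses (amodiaquine+SP). The vehicle group received DMSO. Treated and vehicle RNA were hybridised together on 6 two-colour arrays, 2 for each treatment, with the treated RNA labelled with Cy5 in replicate 1 and with Cy3 in replicate 2. The labels do not say whether the arrays of a pair held the same extracts, so the spread behind a p-value may be technical, and the number of arrays limits the precision of every ratio. In whole-kidney RNA, fewer cells of a type and less RNA per cell cannot be told apart.

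Havcr1 encodes KIM-1, a phosphatidylserine receptor of the TIM family that is nearly absent from healthy proximal tubule and is induced when that segment is injured. Krt18, a type I keratin that pairs with Krt8 in simple epithelia, and Vim, the intermediate filament protein of mesenchymal cells, form the cytoskeleton of tubule cells under stress, where Vim is re-expressed during regeneration. Cst3 encodes cystatin C, a secreted inhibitor of lysosomal cysteine proteases whose blood level serves as a marker of glomerular filtration. Umod encodes uromodulin, made by the thick ascending limb and the main protein of normal urine.

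None of the 5 genes passed the test for a difference between amodiaquine and vehicle kidneys, and with the main settings no other tested probe did so either. Umod and the brighter Vim probe were measured clearly in both dyes of every scan, and Cst3 was of intermediate brightness. Krt18 was bright at 1 of its 4 probes, in a block in register in no scan. The Havcr1 spot read near background, in register only in the amodiaquine+SP scan. The only gene whose whole-array ratio lay at about 2-fold or beyond with little difference between the amodiaquine arrays was Cst3, lower in amodiaquine at its first probe with a log2 ratio of -1.00 ± 0.29 (SE, n = 2 arrays). That probe was kept for the test through vehicle readings alone, and its value was -0.11 ± 0.50 when each block of the array was normalized on its own.

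The 6 scanner files held 4 distinct scans. Of the Cy3 foreground values of replicate 2, 36.9% in SP and 41.9% in amodiaquine+SP also stood in the replicate 1 file of that treatment, against 0.0911% in amodiaquine. The SP pair and the amodiaquine+SP pair were therefore each counted as a single scan, quantified from 2 different grid positions. The labels of such a pair give the ratio opposite directions, so SP and amodiaquine+SP values are given as Cy5 over Cy3 from the replicate 1 file, with no direction towards a treatment and no test. The grid was displaced by up to a few rows or columns in many of the 48 blocks. Blocks in register numbered 16 and 21 on the amodiaquine arrays, 35 and 4 in the SP files and 30 and 2 in the amodiaquine+SP files. In a displaced block the gene at a spot is not certain. Across 363 probes in register with signal-to-noise of at least 2 in both dyes, the Cy5 over Cy3 ratios of the amodiaquine arrays had a correlation across probes of 0.19 with whole-array loess and of 0.74 within blocks. The dyes were swapped between these arrays by the labels, so once turned to amodiaquine over vehicle the within-block ratios of the arrays ran against each other. The direction is kept below as labelled.

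The markers were spread over 9 blocks that differed in register. Umod and the brighter Vim probe lay in block 26, in register in all 4 scans. The same held for the first Cst3 probe in block 3, the third Krt18 probe in block 6 and the dimmer Vim probe in block 25. The second Krt18 probe, in block 15, was in register in 3 scans and the second Cst3 probe, in block 21, in 2. Havcr1, in block 23, was in register only in the amodiaquine+SP scan. The brightest and the dimmest Krt18 probes, in blocks 31 and 35, were in register in none of the 4 scans.

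**Figure D1:**
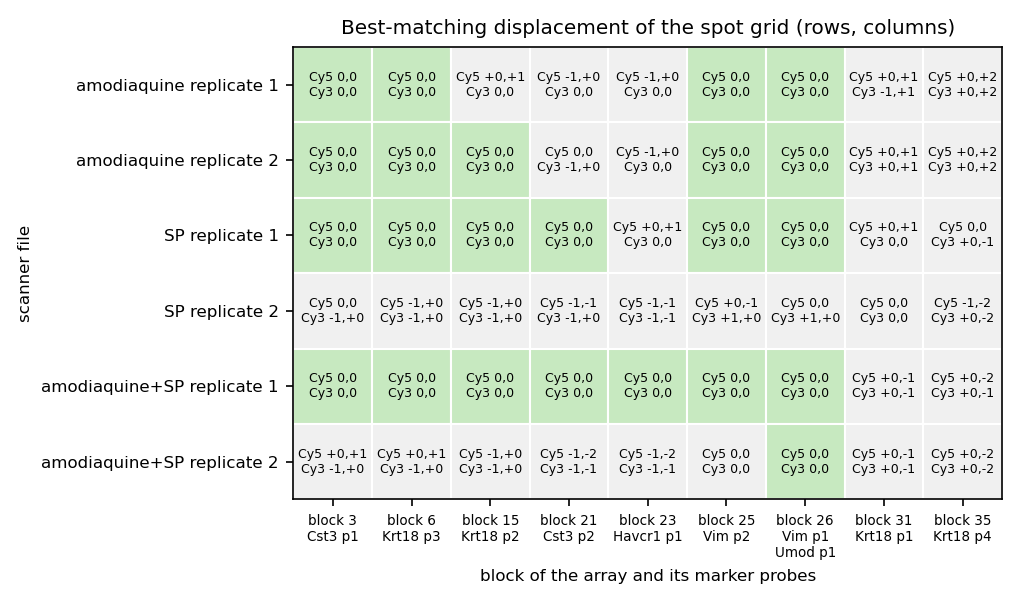
Displacement of the spot grid, in rows and columns for each dye, that best matched each block to the other treatments' files, for the 9 blocks with marker probes (columns) in the 6 scanner files (rows). Green cells are in register; block 26, with Umod and the brighter Vim probe, is green in every file except SP replicate 2, and blocks 31 and 35, with Krt18 probes, are green in none.

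Brightness was ranked as the percentile of a spot's mean log2 intensity over both dyes among all spots of its array. A percentile describes a spot and not the amount of a transcript, since probes differ in length and labelling. The brighter Vim probe stood at percentile 97.6 ± 0.8 (SD, n = 4 scans) and Umod at 96.3 ± 2.2. The brightest Krt18 probe stood at 89.7 ± 7.8 and the first Cst3 probe at 85.1 ± 4.3. The dimmer Vim probe followed at 76.4 ± 3.2, the second Cst3 probe at 66.8 ± 24.3 and Havcr1 at 50.2 ± 14.2. The other Krt18 probes were at 43.8 ± 11.6, 41.3 ± 21.5 and 34.8 ± 25.5. The ranges of neighbouring probes overlapped from Vim through Umod to the first Krt18 probe, and the lowest Umod scan, at 93.4, was above the highest scan of the first Cst3 probe, at 89.7. Probes of the same gene could thus lie far apart, with the brighter Vim probe above the dimmer by more than their spread. These ranks rest on the placement of gene names: taken by spot number instead, Umod would stand at 19.6 and the brighter Vim probe at 58.9, while the dimmer Vim probe would stand at 95.2.

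Signal-to-noise, the deposited ratio of background-corrected signal to background noise, did not follow brightness at every probe. Umod and the brighter Vim probe reached 2 in both dyes of all 4 scans. The brightest Krt18 probe did so in amodiaquine replicate 2, and in replicate 1 only if a Cy3 reading over a background of 0 is counted. The first Cst3 probe did so in 1 scan. The second Cst3 probe reached 2 only in Cy3, in 2 scans, and Havcr1 only in Cy3 of amodiaquine replicate 1. The dimmer Vim probe and the other 3 Krt18 probes reached it in neither dye of any scan.

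**Figure D2:**
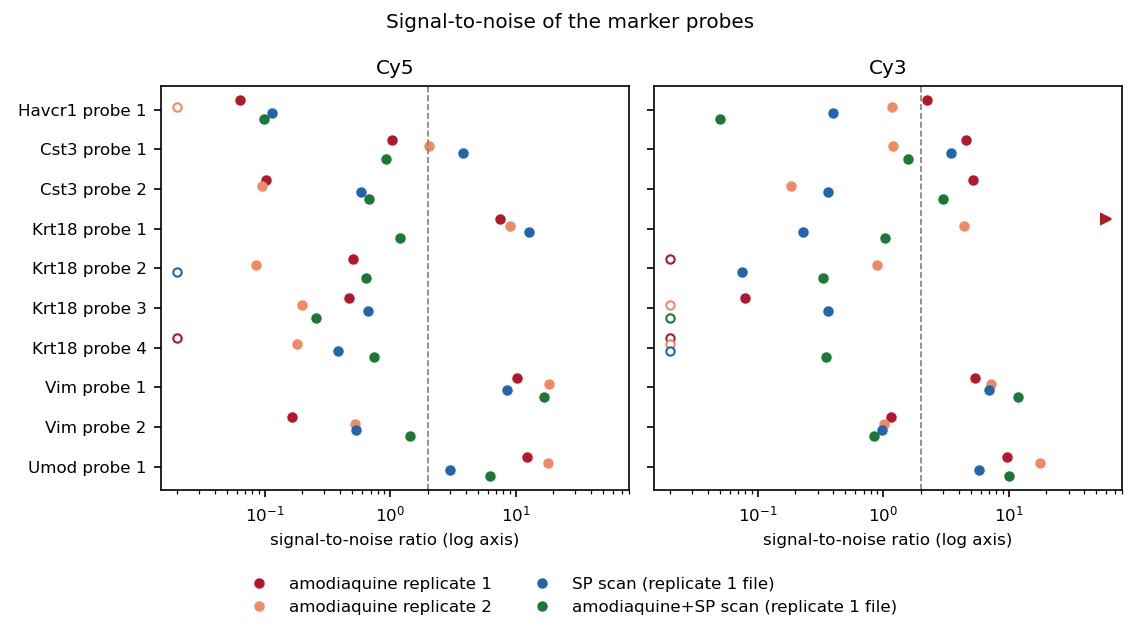
Signal-to-noise ratio of the 10 marker probes in Cy5 (left) and Cy3 (right) on log axes, 1 point per scan; the dashed line is the minimum of 2, open points are readings recorded as 0 and drawn at the left edge, and the triangle is the Krt18 reading over a background of 0. The points of Umod and of Vim probe 1 all lie right of the line, and those of Vim probe 2 and Krt18 probes 2 to 4 all lie left of it.

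For amodiaquine, probes were tested when the signal-to-noise reached 2 in at least 1 dye on at least 1 array of the pair. This kept 10030 probes, with 6 of the 10 marker probes among them. Krt18 probes 2, 3 and 4 and Vim probe 2 were not kept. At a Benjamini-Hochberg adjusted p under 0.05 in limma, 0 of the 6 were called, beside 0% of all probes tested. At an unadjusted p under 0.05, 0 of the 6 passed, beside 4.79% (480 probes). Each of the 6 had an adjusted p of 0.999 in limma. The fit of 2 arrays had 1 residual degree of freedom, so the absence of calls does not show that the markers were unchanged. A ratio of the same sign on both amodiaquine arrays was found for 3 of the 6, beside 48.3% of all probes, and within blocks for 1 of the 6, beside 42.4%. With 6 probes, neither count stands apart from its background, and the 3 include both Cst3 probes, which passed the filter through vehicle readings alone.

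Umod was bright in amodiaquine and in vehicle RNA. Its background-corrected intensity was 11203 in amodiaquine against 4389 in vehicle in replicate 1. In replicate 2 it was 11884 in amodiaquine against 14104 in vehicle. These intensities come before any balancing of the dyes, and amodiaquine was the higher channel only in replicate 1. With whole-array loess the log2 ratios were 0.17 and 1.01, higher in amodiaquine on both arrays, with a mean of 0.59 ± 0.38 (SE, n = 2, limma unadjusted p = 0.24). Within block 26 they were -1.78 and 0.54, with a mean of -0.62 ± 0.78 (limma unadjusted p = 0.495). The sign thus turned with the normalization, and the arrays no longer shared a direction. The 26 well-measured probes of block 26 had a median of 0.65 with whole-array loess and -0.43 within the block. The mean of Umod thus lay near the median of those 26 probes under both settings. By array their whole-array medians were 0.68 and 0.38, against 0.17 and 1.01 for Umod. Over all 480 spots of the block the whole-array medians were 0.16 and 0.18.

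In the single scans Umod was lower in Cy5. Its corrected intensity was 2229 in Cy5 against 4820 in Cy3 in the SP scan, and 6564 in Cy5 against 7593 in Cy3 in the amodiaquine+SP scan. The log2 ratios of Cy5 over Cy3 were -1.16 and -0.52 with whole-array loess and -1.14 and -0.76 within the block. Read the same way, unturned, the amodiaquine arrays gave -1.78 and -0.54 within the block. Umod was therefore lower in Cy5 in all 4 scans within the block, including both dye orientations of amodiaquine.

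The amodiaquine+SP files show the conflict of labels in single numbers. The Umod spot had foreground values of 7721 in Cy5 and 8472 in Cy3 in both files. By the labels its log2 ratio was -0.52 in replicate 1 and 0.68 in replicate 2. For the brighter Vim probe the values 15457 in Cy5 and 8888 in Cy3 also stood in both files, and the labelled ratios were 0.47 and -0.17. The same fluorescence values thus stood under opposite directions. Of 40 marker readings in the SP and amodiaquine+SP scans, 15 had an identical foreground value in the same block of the replicate 2 file, 4 of them at the same place and 11 displaced.

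Vim was bright at its first probe in every scan. Its corrected intensity was 13273 in amodiaquine against 2241 in vehicle in replicate 1, and 6263 in amodiaquine against 16890 in vehicle in replicate 2. In each replicate the higher reading was the Cy5 channel. With whole-array loess the log2 ratios were 1.39 and -0.24, with a mean of 0.57 ± 0.58 (SE, n = 2, limma unadjusted p = 0.411). Within the block they were -0.46 and -0.59, with a mean of -0.52 ± 0.21 (limma unadjusted p = 0.107). Of the 6 tested probes it was the only one with the same sign on both arrays within blocks, and the sign of its mean was the opposite of that with whole-array loess. In Cy5 over Cy3 it stood at 0.08 in the SP scan and 0.47 in the amodiaquine+SP scan with whole-array loess, and at 0.17 and 0.34 within the block.

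The second Vim probe was not bright enough for the test. Its signal-to-noise did not exceed 1.445 in either dye of the 4 scans. Its whole-array log2 ratios for amodiaquine were -0.61 and 0.06, on opposite sides of 0. In the replicate 2 file of SP its Cy3 foreground was 19652, against 1777 in the replicate 1 file of the same scan, and the value 1777 stood 1 row away. The bright reading thus stood at a place where the replicate 1 file has another spot.

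**Figure D3:**
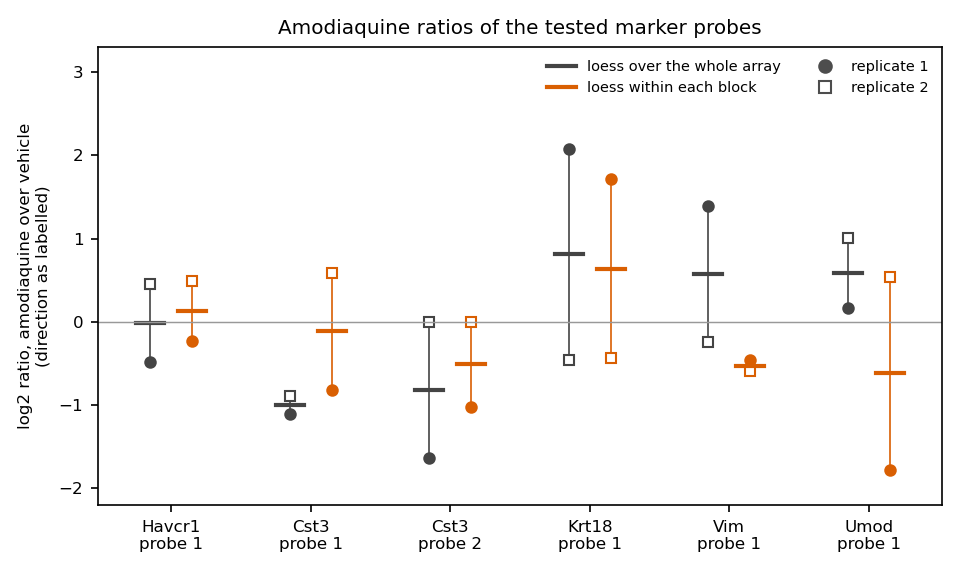
Log2 ratio of amodiaquine over vehicle for the 6 tested marker probes, after loess over the whole array (dark) or within each block (orange). Filled circles are replicate 1, open squares replicate 2 and bars their mean; the bar of Umod and that of Vim change side of 0 between the normalizations, and the 2 dark points of Cst3 probe 1 lie close together near -1.00.

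Cst3 was of intermediate brightness and close to the limit of signal-to-noise. At the first probe the corrected intensity was 1289 in amodiaquine against 2273 in vehicle in replicate 1. In replicate 2 it was 637.1 in amodiaquine against 1782 in vehicle. Amodiaquine was the lower channel on both arrays, in opposite dyes. The signal-to-noise was 1.029 and 1.196 in amodiaquine, against 4.596 and 2.041 in vehicle, so the probe passed the filter only through the group where it is high. The whole-array log2 ratios were -1.11 and -0.89, with a mean of -1.00 ± 0.29 (SE, n = 2, limma unadjusted p = 0.0516, adjusted p = 0.999). Within block 3 they were -0.82 and 0.59, with a mean of -0.11 ± 0.50 (limma unadjusted p = 0.836). The 12 well-measured probes of block 3 had medians of -0.82 and -1.66 on the arrays with whole-array loess, so those probes were lower in amodiaquine as well. Over all 480 spots of the block the whole-array medians were -0.03 and -0.13. Within the block the median of the 12 was 0.16. Over all the settings tried, the mean of this probe stayed below 0, between -1.35 and -0.11. These settings reprocessed the same amodiaquine readings, so the shared sign is no independent support for a decrease.

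The second Cst3 probe lay in a displaced block on both amodiaquine arrays. It passed the filter only through the vehicle reading of replicate 1, with a signal-to-noise of 5.159, and its other 3 readings did not exceed 0.186. Its whole-array log2 ratios were -1.63 and -0.00, with a mean of -0.81 ± 0.58 (SE, n = 2, limma unadjusted p = 0.272). Within the block they were -1.02 and 0.00, with a mean of -0.51 ± 0.39. With background subtraction the mean was -2.70, and with the authors' values -2.75. The size of the mean was set by replicate 1, where Cy3 was read in register and Cy5 1 row away. In Cy5 over Cy3 the first probe stood at -0.52 in the SP scan and -0.17 in the amodiaquine+SP scan, and the second at 0.12 and -0.25. The first probe was lower in Cy5 in all 4 scans within blocks.

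Of the tested marker probes, 3 could be followed in register through all 4 scans, Umod, the brighter Vim probe and the first Cst3 probe. Within blocks 2 of the 3, Umod and Cst3, had the same sign of Cy5 over Cy3 in every scan, beside 40.0% of the 1300 probes in register throughout. With whole-array loess it was 1 of the 3, Vim, beside 25.4%. No count of 3 stands apart from these shares. By the labels, Cy5 held amodiaquine RNA on the first array and vehicle RNA on the second.

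**Figure D4:**
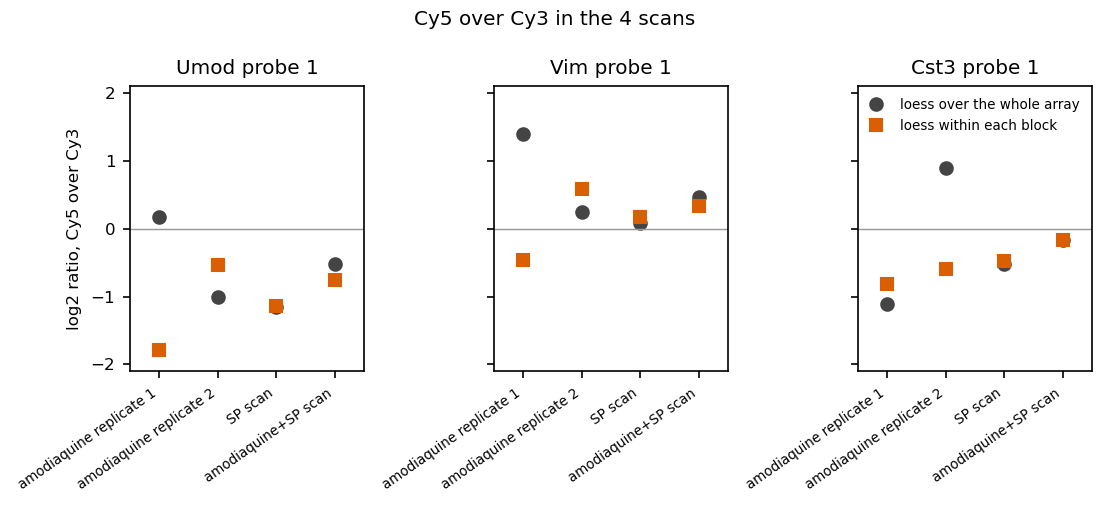
Log2 ratio of Cy5 over Cy3 in the 4 scans for the 3 marker probes in register in all of them, after loess over the whole array (circles) or within each block (squares). Within blocks Umod and Cst3 lie below 0 in every scan, and Vim lies below 0 only in amodiaquine replicate 1.

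Krt18 was bright at its first probe only, in a block out of register in every scan. There the corrected intensity was 9092 in amodiaquine against 35.87 in vehicle in replicate 1, and the vehicle reading was recorded over a background of 0. In replicate 2 it was 3920 in amodiaquine against 10925 in vehicle. Higher in amodiaquine on the first array and lower on the second, Cy5 was the brighter dye on both. The whole-array log2 ratios were 2.08 and -0.46, with a mean of 0.81 ± 0.85 (SE, n = 2, limma unadjusted p = 0.423), and within the block 1.72 and -0.44, with a mean of 0.64 ± 0.73. With background subtraction the mean was 3.66, and with the authors' values 3.64 (limma unadjusted p = 0.0417, adjusted p = 0.598). In Cy5 over Cy3 the SP scan gave 3.34 with whole-array loess and 0.85 within the block, and the amodiaquine+SP scan 0.03 and 0.02.

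Block 31 was displaced by 1 column in at least 1 dye of all 4 scans, to 1 side in amodiaquine and SP and to the other in amodiaquine+SP. Which of the neighbouring spots is Krt18 is therefore not settled. At the best-matching place the percentile was 77.62 and 79.36 on the amodiaquine arrays, 81.93 in the SP scan and 94.59 in the amodiaquine+SP scan. Signal-to-noise there reached 2 in both dyes only in amodiaquine+SP, at 5.473 in Cy3 and 12.93 in Cy5. Read at the best-matching place in each dye, the amodiaquine mean was 0.19 ± 0.25 with whole-array loess and -0.12 ± 0.23 within the block. The other Krt18 probes gave whole-array log2 ratios of 0.17 and 0.19 at probe 2, 0.09 and -0.27 at probe 3, and -0.03 and -0.12 at probe 4. All 6 of these readings were of spots below the signal-to-noise minimum, so they cannot show whether the 4 probes share a direction.

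The Havcr1 spot read at or near background in the 4 scans, with 1 Cy3 reading above the minimum of 2. Only in the amodiaquine+SP scan was its block in register, so the other scans do not settle the level of Havcr1. The signal-to-noise of the spot in Cy5 was 0.064 and 0 on the amodiaquine arrays, 0.114 in the SP scan and 0.099 in the amodiaquine+SP scan. In Cy3 it was 2.218, 1.184, 0.398 and 0.05 in the same order. Displaced Cy5 readings may be of a neighbouring spot. At the best-matching place the Cy5 value was 0 and 0.972 on the amodiaquine arrays and 0.159 in the SP scan. Havcr1 entered the test through the reading of 2.218, which by the labels is vehicle RNA. The whole-array log2 ratios for amodiaquine were -0.48 and 0.46, with a mean of -0.01 ± 0.40 (SE, n = 2, limma unadjusted p = 0.982). Within the block they were -0.23 and 0.49, with a mean of 0.13 ± 0.31. A change of this injury marker was not detectable at this signal.

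A bright Havcr1 reading did stand in both replicate 2 files of the other treatments. Its foreground was 27117 in Cy5 and 17186 in Cy3 in SP, and 1389 in Cy5 and 21894 in Cy3 in amodiaquine+SP. The replicate 1 files of the same scans held 742 in Cy5 and 1341 in Cy3 for SP, and 899.2 in Cy5 and 1050 in Cy3 for amodiaquine+SP. By the labels the Havcr1 log2 ratio for amodiaquine+SP was 0.01 in replicate 1 and 4.62 in replicate 2. In the replicate 2 files block 23 was displaced by 1 row and by 1 or 2 columns, and at the best-matching place the spot stood at percentile 31.4 in SP and 46.8 in amodiaquine+SP. The bright readings were thus not seen at the place that matched the rest of the block.

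Genes that work with the markers were taken from fixed lists, each gene by its brightest probe. The thick limb, filament, cystatin and TIM family lists also hold markers, which are part of their counts and medians. No gene of any list was called for amodiaquine by limma at an adjusted p under 0.05, beside 0% of all probes. Over all 4547 genes tested the median log2 ratio was -0.01 with either normalization, with 2233 higher and 2314 lower in amodiaquine, and 222 had an unadjusted p under 0.05. Of 24 thick ascending limb genes, 7 were on the array and tested, 4 higher and 3 lower, with a median of 0.02 with whole-array loess and -0.13 within blocks. Ppp1r1a, a protein phosphatase inhibitor that lay in block 26 like Umod, had whole-array ratios of 1.84 and -0.02 and within-block ratios of 0.11 and -0.38. Atp1b1, the beta subunit of the sodium pump, had -1.22 and 0.51, and Wnk1, a kinase that controls chloride transport, 0.51 and -2.52 with whole-array loess. Each of these gave opposite signs on the amodiaquine arrays, unlike Umod with whole-array loess. The block of Atp1b1 was out of register on the second of these arrays.

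For the cytoskeletal markers, 9 of 17 listed intermediate filament genes and partners were tested, 5 higher and 4 lower, with a median of 0.05 with whole-array loess and 0.18 within blocks. Plec, the linker plectin, had the only unadjusted p under 0.05 of that list (0.023 in limma). Its whole-array log2 ratios were -1.66 and -2.76, and within its block they were -2.08 and -0.26. That block, 15, was out of register on the first amodiaquine array, with Cy5 displaced by 1 column. The 7 well-measured probes of block 15 had a whole-array median of -1.37. Lmnb1, a nuclear lamin, had -5.72 and 3.20, in the same displaced block 23 as Havcr1. Des, the muscle filament desmin, had -0.14 and -0.23 and was too dim for the test.

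For Cst3, 10 of 16 listed cystatins and cathepsins, the proteases that cystatins inhibit, were tested. Of these, 3 were higher and 7 lower in amodiaquine, with a median of -0.33 with whole-array loess and -0.06 within blocks. The lysosomal protease Ctsl resembled the first Cst3 probe, with whole-array ratios of -0.89 and -1.08 and within-block ratios of -0.74 and 0.34. Ctsb, in a block out of register on the first amodiaquine array, had -1.90 and 0.75, and the legumain gene Lgmn -0.37 and 0.12 with whole-array loess. For Havcr1, 3 of 11 listed genes of the TIM family and of phagocytosis were tested, Havcr1 itself among them, 1 higher and 2 lower. Mertk, a receptor for apoptotic cells, had -0.29 and 0.08. Elmo1, an engulfment adaptor, had 2.83 and -0.10 in the same displaced block 31 as Krt18. Its partner Dock1, not tested and also in a displaced block, had 0.06 and 0.03.

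The wider list of tubular injury and stress genes, which contains 4 of the 5 markers, had 21 of 42 genes tested. Of these, 12 were higher and 9 lower, with a median of 0.09 with whole-array loess and 0.05 within blocks, and none had an unadjusted p under 0.05. Mt1, a metallothionein, had ratios of 0.28 and -0.39. Igfbp7, a secreted growth factor binding protein used as a urinary stress marker, had 0.16 and -1.63, and the immediate early gene Fos 0.82 and -1.38. All 3 gave opposite signs on the amodiaquine arrays. The blocks of Mt1 and Fos were out of register on both of these arrays, and that of Igfbp7 on the second. The gene at those spots is therefore not certain.

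Markers of the kidney's cell types were read beside these values. The brightness percentile had a median of 94.4 over the 7 thick limb genes and 91.1 over the 9 proximal tubule genes on the array, against 52.3 over all genes. The median was 58.7 for 3 distal tubule and collecting duct genes, 58.6 for 7 of glomerulus and endothelium, 55.8 for 9 of fibroblast and smooth muscle and 48.4 for 5 of leucocytes. Those in register in all 4 scans were 3 thick limb genes, Umod among them, 1 proximal tubule gene, 2 fibroblast genes and 0 of the other lists. The gene at most of these spots is thus not certain, and names were placed after brightness had been seen. Single genes ran from 35.3 to 99.2 in the thick limb list, from 68.6 to 96.5 in the proximal tubule list, from 24.5 to 92.8 in the fibroblast list and from 40.7 to 95.2 in the leucocyte list. Of the proximal tubule list, 5 were higher and 4 lower in amodiaquine, with a median ratio of 0.04 with whole-array loess and -0.14 within blocks, and 2 had an unadjusted p under 0.05. Lrp2, the endocytic receptor megalin, had whole-array ratios of -0.88 and -2.09. The other brightest genes of that list gave opposite signs on the arrays, Ass1 with -1.64 and 1.73 and Aqp1 with -1.17 and 2.81. Lrp2 was in register in all 4 scans, Aqp1 in 3 and Ass1 in 1. Vim is also made by fibroblasts, podocytes, mesangial and endothelial cells and leucocytes. Of 5 tested glomerular and endothelial genes, 3 were higher and 2 lower, with medians of 0.09 with whole-array loess and -0.03 within blocks. Of 5 tested fibroblast and smooth muscle genes, 2 were higher and 3 lower, with medians of -0.13 with whole-array loess and 0.03 within blocks. Lum, a matrix proteoglycan, had the only unadjusted p under 0.05 of that list (0.016 in limma), with whole-array ratios of -1.93 and -2.92 and within-block ratios of -1.60 and 0.23. The other brightest genes of that list had whole-array ratios of 0.84 and -0.06 (Fn1) and of 0.27 and 0.50 (Acta2). Lum, Fn1 and Acta2 all lay in blocks out of register on both amodiaquine arrays. The leucocyte list had 2 higher and 2 lower with medians of -0.14 and 0.06. Their part in the marker ratios was not tested.

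Probes whose pattern was most like each marker were found by the Euclidean distance of within-block Cy5 over Cy3 log2 ratios over the 4 scans, among 6553 candidate probes. Nearest to Umod were Ftl1, ferritin light chain, at a distance of 0.45, and Rpsa, a ribosomal protein, at 0.53. The nearest to Vim were Tex14 at 0.17 and Usp19 at 0.21, and those to Cst3 Ssbp3 at 0.08 and Rcc1l at 0.16. Krt18 was closest to Paf1 at 0.24 and Anapc4 at 0.31, and Havcr1 to Ftsj3 at 0.12 and Rbbp6 at 0.13. The Krt18 spot was in register in 0 and the Havcr1 spot in 1 of the 4 scans, so these may be neighbours of other genes' spots. Whether any of the distances is smaller than for unrelated probes was not tested.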

How the data were processed

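Kidney RNA was measured on 6 two-colour arrays, 2 per treatment. The deposited scanner files hold linear intensity per spot and dye (foreground, background and corrected) and a signal-to-noise ratio. Per the series' design text, spots were measured in ArrayVision 8.0 from ImageQuant 5.0 scans, and the authors' processed log2 ratios were LOWESS-normalized in Avadis 4. Against the scanner values those log2 ratios had slopes of -0.981 to 0.977, with the sign turned by labelled dye. Their array medians ran from -0.0684 to 0.115, and their centring is not known. No genome build is named in the labels or files.

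Names were placed by reordering the blocks, an order chosen after brightness values had been seen. Of 23040 spots, 206 carried several genes and 7720 none named here. RefSeq GRCm38.p6 gave current symbols for 14956 of the 15114 probes of 1 gene. Background was corrected with normexp (offset 50) and ratios with loess (span 0.3) in limma 3.58.1 under R 4.3.3. At 58 spots of SP replicate 1 with no Cy5 background the array median was used, and those spots were then left out. The fit used the 2 amodiaquine arrays (1 residual and 1.53 prior degrees of freedom), turned by labelled dye, with Benjamini-Hochberg adjustment over all probes kept. Grid shifts of up to 3 rows or columns were tried for each dye and block. A block counted as in register if neither dye matched the files of the other treatments better when shifted, and if its dyes had a rank correlation of 0.5 or more. Genes named were all marker probes, the 3 brightest genes other than markers of a list, and the 2 nearest patterns per marker. For the distal tubule and collecting duct, glomerulus and endothelium, and leucocyte lists only counts and medians are given. Members and lists were chosen with earlier results of these data known.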

Additional observations from a re-analysis of the deposited data

Results flagged for a closer look

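As labelled, the Umod log2 ratio was above 0 on both amodiaquine arrays (0.17 and 1.01) and below 0 in both SP files (-1.16 and -1.11), and the mean for amodiaquine minus that for SP was 1.72. The difference was not tested. Both SP files are readings of 1 scan under opposite labels. In the replicate 2 file the Cy3 grid of block 26 was displaced by 1 row: its Cy3 foreground was 1186 there, whereas the replicate 1 value of 5646 stood 1 row away. Within the block the labelled ratios were -1.78 and 0.54 in amodiaquine, against -1.14 and -1.40 in SP, so amodiaquine no longer had 1 sign.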

How the results depend on the processing

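No marker probe was called under the 11 alternatives, but fits of so few arrays cannot show that the markers were unchanged. The number of all probes called was 0 in each alternative except the filter of signal-to-noise of at least 2 in both dyes on both arrays. That filter gave 2 calls among 1130 probes, neither with a gene named here, and kept 3 marker probes, Krt18 probe 1 only by counting its reading over a background of 0. Unadjusted p-values under 0.05 in limma numbered 480 with the main settings and from 32 to 853 in the alternatives, which tested from 1130 to 23040 probes. Among marker probes they numbered 1 of 10 with no filter, beside 853 of all 23040 probes. At matched positions they numbered 1 of 6, beside 349 of 9607, and with the authors' values 1 of 5, beside 454 of 5825. In the other settings no marker probe had one. Within-block loess turned Havcr1 to 0.13, Vim probe 1 to -0.52 and Umod to -0.62, and gave 184 probes with an unadjusted p under 0.05. Matched positions with within-block loess turned Krt18 probe 1 to -0.12, Vim to -0.52 and Umod to -0.62, and median centring turned Havcr1 to 0.04. With 1 array left out, values ran from -0.48 to 0.46 for Havcr1, -0.46 to 2.08 for Krt18 and -0.24 to 1.39 for Vim. They ran from -1.11 to -0.89 and from -1.63 to -0.00 for the Cst3 probes and from 0.17 to 1.01 for Umod. Background subtraction and the authors' values moved Krt18 probe 1 to 3.66 and 3.64 and Cst3 probe 2 to -2.70 and -2.75. The replicate 2 file turned Umod in the SP scan to 1.11. The cause was not tested. The median of all probes was 0.00 with the main settings, 0.17 with median centring, 0.27 with subtraction, 0.29 with the authors' values, -0.15 without readings over a background of 0 and -0.22 in blocks in register. Names by spot number moved the brightness of 7 of the 10 probes by more than their SD over scans. Signal-to-noise limits what can be said of Havcr1, Vim probe 2 and Krt18 probes 2 to 4. Alternatives on register, matched positions and backgrounds of 0 were chosen after seeing the data. No paired analysis was possible because each ratio already sets treated against vehicle RNA on 1 array, and the replicate numbers used here stand for dye orientation.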
